A study of Mus musculus with 6 samples.

Results

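The genes described here build and load MHC class I, the surface molecule that shows peptides from inside a cell to T cells and natural killer cells. There are 10 of them, H2-K1, H2-D1, H2-T23, B2m, Tap1, Tap2, Tapbp, Psmb8, Psmb9 and Nlrc5, taken from the deposited count table by gene symbol, 10 of its 51826 genes. Each had 1 row and enough counts to enter the test, which covered 19027 genes. RNA came from whole ovaries of ICR mice, an outbred stock, in 3 groups of 2 libraries. The reference group is labelled COH, an abbreviation that the labels do not expand. The OHSS group is a mouse model of ovarian hyperstimulation syndrome, in which hormone treatment leaves the ovaries enlarged and the vessels leaky. The last group, OHSS+Nin below, had the same model and received the agent given as Nintedanib (bibf1120), a tyrosine kinase inhibitor aimed at growth factor receptors that include those for VEGF. Age, hormone schedule, dose and time of sampling were not given in the sources used here. The labels do not tell whether replicate libraries are separate animals, so p-values measure the spread between these libraries only, and it may be technical.

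A class I molecule pairs a heavy chain with the small subunit beta-2-microglobulin and binds a short peptide. Proteasomes cut the peptides, the TAP transporter pumps them into the endoplasmic reticulum, and tapasin holds the empty heavy chain beside TAP until a peptide fits. Nearly all nucleated cells carry class I, and interferons raise many of its genes through STAT and IRF factors and through the transactivator NLRC5, which acts at paired X and Y boxes in class I promoters.

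The promoters of H2-K1 and H2-D1, which encode the classical heavy chains, and of B2m, the shared light chain, are shown because they hold these boxes at the same spacing. The sequences are from RefSeq on GRCm38.p6 and read 5′ to 3′ on the gene's strand. Capitals mark matches, on either strand, to AANNGAAA (the core of an IRF site), TTCNNNGAA (STAT), CCAAT (Y box), TGACG (the core of an X2 box) and a 10-base NF-kB site, which is the first run of capitals in H2-K1. The H2-K1 and B2m runs are the 200 bases before the start, at chr17:34000348-34000547 on the minus strand and chr2:122147487-122147686 on the plus strand. The H2-D1 runs lie at chr17:35262923-35262951 and chr17:35262993-35263022 on the plus strand. Both lie inside the H2-D1 gene as GENCODE spans it, from an earlier start at 35262730.
H2-K1: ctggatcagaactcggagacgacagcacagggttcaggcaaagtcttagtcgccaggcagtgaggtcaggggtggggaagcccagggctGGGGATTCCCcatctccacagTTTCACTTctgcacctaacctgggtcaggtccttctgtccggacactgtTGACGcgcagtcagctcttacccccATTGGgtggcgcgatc
B2m: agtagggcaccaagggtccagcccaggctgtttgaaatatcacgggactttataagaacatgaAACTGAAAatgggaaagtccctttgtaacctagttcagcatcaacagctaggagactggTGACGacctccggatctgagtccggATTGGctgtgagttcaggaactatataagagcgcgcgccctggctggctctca
H2-D1, NF-kB to IRF: GGGGATTCCCcatctcctcagTTTCACTT
H2-D1, X2 to Y: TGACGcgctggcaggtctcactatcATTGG

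Promoters of 8 of the 10 genes were in the RefSeq table, and those of Tap2 and Nlrc5 were not. Like that of H2-D1, the windows of Tapbp, Psmb8 and Psmb9 lie inside the gene as GENCODE spans it, and that of H2-T23 does in part. These windows are thus promoters by the RefSeq start. The H2-K1 and H2-D1 stretches from the NF-kB match to the IRF match were identical at 28 of 29 bases. Between their stretches from TGACG to ATTGG, 23 of 30 bases were identical, against 13 of 30 between H2-K1 and B2m. These stretches were cut at the matched motifs, so the bases that the motifs fix were identical by construction. In all 3 genes, 20 bases separated TGACG from ATTGG. The motif TGACG followed 15 to 25 bases later by ATTGG on the same strand, a spacing set with these sequences in view, was found in 3 of the 8 promoters and in 0.374% of 27025 mouse promoter windows of equal length. The NF-kB site was searched only as the exact string shown in H2-K1, with no free bases. That string was found in 2 of the 8, H2-K1 and H2-D1, and in 0.0629% of all windows. A match in H2-K1 was thus given by the string, and H2-D1 is near-identical to H2-K1 there. The shares therefore cannot tell whether NF-kB sites in general are more frequent in these promoters. AANNGAAA was found in 4 of 8 (H2-K1, H2-D1, H2-T23 and B2m) and in 17.2% of all windows. CCAAT was found in 6 of 8 and 30% of all, TGACG in 5 of 8 and 15.8%, and TTCNNNGAA in 1 of 8, Psmb8 with TTCCCAGAA, and 5.62%. These shares describe letters in a window and do not show that a factor binds there. The Tap1 and Psmb9 windows share 175 bases on opposite strands (chr17:34187356-34187530), and their TGACG is the same site at chr17:34187470-34187474.

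On GRCm38, 8 of the genes lie on chromosome 17, where the mouse MHC is, B2m on chromosome 2 (122147686 to 122153083) and Nlrc5 on chromosome 8 (94434356 to 94527272). H2-K1 spans 33996017 to 34000347, H2-D1 35262730 to 35267499 and H2-T23 36029773 to 36032855. Tapbp spans 33915899 to 33929292. Psmb9 (34181987 to 34187764), Tap1 (34187553 to 34197225), Psmb8 (34197721 to 34201454) and Tap2 (34203527 to 34216321) lie side by side. The exons of Psmb9 and Tap1 share 212 bases on opposite strands, which is 5.79% of those of Psmb9 and 3.87% of those of Tap1. Antisense transcripts cover 24.9% of the exon bases of Tapbp and 14.7% of those of Psmb8, and an opposite-strand transcript covers 14.1% of those of Tap2. Of the 100-base stretches in their transcripts, H2-K1 shared 0.957%, H2-D1 3.59% and H2-T23 3.15% with transcripts of other genes, most of them class I relatives. For 50-base stretches the shares were higher, at 9.63% for H2-K1, 12.8% for H2-D1 and 13.6% for H2-T23. Strand use and the treatment of multi-mapping reads were not given in the sources used here, so the levels of the heavy chains and of these overlapping genes are uncertain to that extent, and how well reads of other MHC haplotypes of ICR mice were aligned was not assessed.

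Libraries held 28498435 to 34716751 counts over all genes. Replicates correlated at 0.9746 in COH, 0.9674 in OHSS and 0.9566 in OHSS+Nin (Pearson r of log2 CPM over the genes tested), and libraries of different groups at 0.9488 to 0.9703. Levels are CPM, gene counts scaled to the effective size of the library, and a gene is called at an edgeR adjusted p below 0.05 over all genes tested.

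The order of levels was read per length, as CPM per kilobase of exon. B2m was the most abundant at a mean of 706.4 over the 6 libraries (366 to 1181), and its range did not overlap that of any other of the genes. H2-D1 followed at 166.5 (113 to 273) and H2-K1 at 112 (78.6 to 180). Tapbp stood at 59.8 (39.5 to 102), H2-T23 at 24.6 (3.103 to 60.4), Tap2 at 24.3 (17.7 to 30.9) and Psmb8 at 11.0 (4.8 to 22.1). Tap1 at 5.37 (2.92 to 9.84), Psmb9 at 3.73 (2.24 to 5.20) and Nlrc5 at 1.298 (0.397 to 3.71) were the lowest. From H2-D1 downwards, each gene's range over the libraries overlapped that of the next. Within single libraries, H2-D1 stood above H2-K1, Tapbp above H2-T23, Tap2 above Psmb8, Psmb8 above Tap1 and Psmb9 above Nlrc5 in 6 of 6. The order was less steady between H2-K1 and Tapbp (H2-K1 higher in 5 of 6), Tap1 and Psmb9 (Tap1 higher in 4 of 6) and H2-T23 and Tap2 (H2-T23 higher in 3 of 6).

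**Figure D1:**
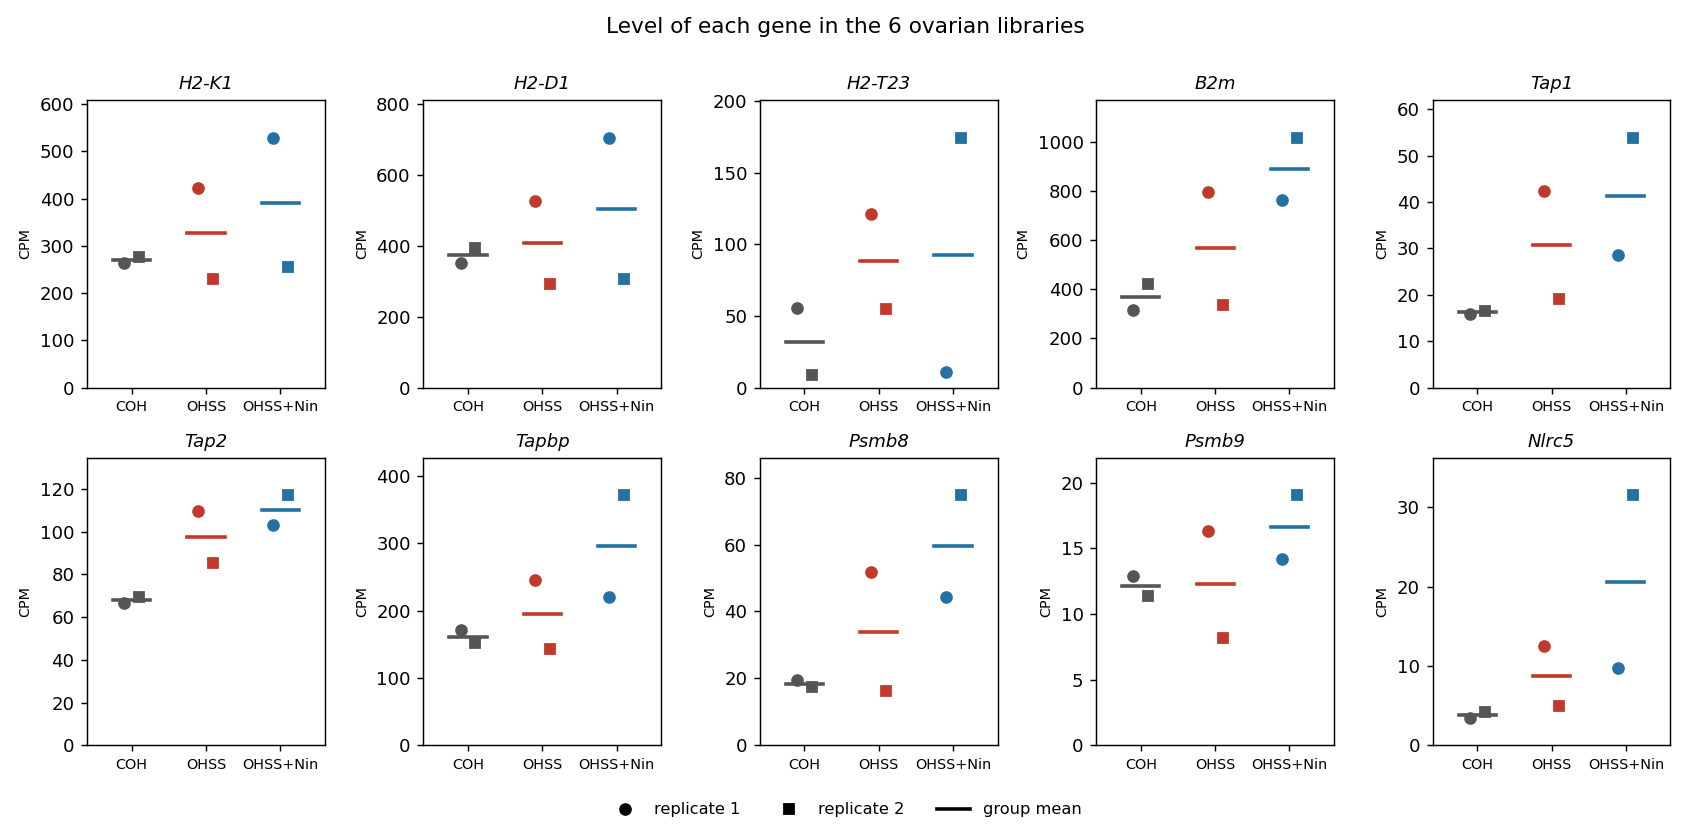
Level of each gene in CPM (y axis, from 0) in the libraries of COH, OHSS and OHSS+Nin (x axis); circles are replicate 1, squares replicate 2 and bars the group means. The COH replicates sit close together for every gene but H2-T23, while the OHSS replicates differ by 1.28- to 3.19-fold.

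The classical heavy chains H2-K1 and H2-D1 moved together and followed no group. H2-K1 stood at 265 and 277 CPM in COH, 423 and 231 in OHSS, and 529 and 254.5 in OHSS+Nin. H2-D1 stood at 353 and 394 CPM in COH, 526 and 292 in OHSS, and 705 and 305.5 in OHSS+Nin. For both genes replicate 1 of OHSS and of OHSS+Nin lay above both COH libraries and replicate 2 of each lay below them, so all 3 groups overlapped. Group means of H2-K1 were 270.9 ± 8.98 CPM in COH, 327 ± 136 in OHSS and 391.6 ± 194 in OHSS+Nin (SD, n = 2). The log2 fold change of H2-K1 was 0.27 (SE 0.422) in OHSS against COH, 0.26 (SE 0.422) in OHSS+Nin against OHSS and 0.53 (SE 0.423) in OHSS+Nin against COH, with edgeR adjusted p = 0.877, 0.904 and 0.694. For H2-D1 the values were 0.13 (SE 0.455), 0.30 (SE 0.455) and 0.44 (SE 0.456). The ratio of H2-K1 to H2-D1 counts varied little, from 0.703 to 0.833 over the 6 libraries, while each gene varied by 2.29- and 2.42-fold.

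H2-T23, the nonclassical heavy chain Qa-1 that natural killer cells read through CD94 and NKG2 receptors, varied most. It stood at 55.4 and 8.97 CPM in COH (1970 and 256 counts), 122 and 54.7 in OHSS, and 10.9 and 174.5 in OHSS+Nin (314 and 5599 counts). Its replicates differed by 6.18-fold in COH and 16-fold in OHSS+Nin, and the groups overlapped throughout. Its log2 fold change was 1.45 (SE 1.38, 95% interval -2.02 to 4.92) in OHSS against COH and 0.07 (SE 1.35, interval -3.32 to 3.47) in OHSS+Nin against OHSS. Without OHSS+Nin replicate 2 the latter was -3.02, and without OHSS replicate 2 it was -0.39. It was 0.98 without OHSS+Nin replicate 1 and 0.74 without OHSS replicate 1, so its sign rested on single libraries. H2-T23 made up 6.94 and 1.116% of the CPM of 19 class I heavy chain genes in COH, 9.21 and 7.78% in OHSS, and 0.755 and 14.7% in OHSS+Nin. Those 19 have symbols that begin with H2-, and other listed heavy chain genes without that prefix are left out. H2-T22, a heavy chain encoded nearby in the H2-T region, was high and low in the same libraries, at 49.75 and 17.3 CPM in COH, 91.6 and 50.02 in OHSS, and 23.1 and 180.5 in OHSS+Nin. H2-T10, another H2-T gene, had the opposite order of replicates in COH and OHSS+Nin but not in OHSS, at 24.9 and 44.0 CPM in COH, 35.2 and 22.9 in OHSS, and 50.9 and 9.35 in OHSS+Nin. H2-T22 and H2-T10 were singled out after their values were seen.

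B2m, the light chain that every class I molecule needs, stood at 315 and 421 CPM in COH, 794 and 338 in OHSS, and 761.5 and 1016 in OHSS+Nin. Both OHSS+Nin libraries lay above both COH libraries, while OHSS replicate 2 lay among the COH values. The mean was 367.8 ± 75.3 CPM in COH, 565.9 ± 322 in OHSS and 888.7 ± 180 in OHSS+Nin (SD, n = 2). Against COH, the drug group had a log2 fold change of 1.27 (SE 0.427, 95% interval 0.20 to 2.35), which was not called (edgeR adjusted p = 0.494). The ratio of H2-K1 plus H2-D1 to B2m was 1.96 and 1.60 in COH, then 1.20 and 1.55 in OHSS, and 1.62 and 0.551 in OHSS+Nin. The lowest ratio was that of OHSS+Nin replicate 2, the library with the most B2m and with little H2-K1 and H2-D1. Summed over all 19 heavy chain genes, whose CPM were 798 and 804 in COH, then 1321 and 703.5 in OHSS, and 1443 and 1187 in OHSS+Nin, the ratio to B2m ran from 1.17 to 2.54. In that library H2-K1 and H2-D1 held 47.2% of heavy chain CPM, against 71.9 to 85.5% in the other libraries.

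Among the genes of peptide transport, Tap2 had the tightest replicates. Tap1 and Tap2 encode the subunits of the TAP transporter, and Tapbp encodes tapasin. Tap2 stood at 66.8 and 69.1 CPM in COH, 109.4 and 85.5 in OHSS, and 103 and 117 in OHSS+Nin, with both other groups above COH. Tap1 stood at 16.0 and 16.5 CPM in COH, 42.3 and 19.2 in OHSS, and 28.65 and 53.9 in OHSS+Nin, again with both groups above COH. The replicates of OHSS differed by 2.21-fold for Tap1 but by 1.28-fold for Tap2. The ratio of Tap1 to Tap2 counts was 0.239 in each COH library, 0.387 and 0.224 in OHSS, and 0.278 and 0.461 in OHSS+Nin. Tapbp stood at 171 and 151 CPM in COH, 245 and 143.5 in OHSS, and 219.7 and 371 in OHSS+Nin. OHSS+Nin lay above COH for Tapbp, and OHSS replicate 2 lay below it.

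Psmb8 and Psmb9 encode inducible catalytic subunits that replace Psmb5 and Psmb6 in the immunoproteasome, whose cuts favour peptides that fit class I. Psmb8 stood at 19.45 and 17.3 CPM in COH, 51.8 and 16.2 in OHSS, and 44.4 and 74.7 in OHSS+Nin. OHSS spanned from below both COH libraries to well above them, and OHSS+Nin lay above COH. Psmb9 stood at 12.9 and 11.35 CPM in COH, 16.3 and 8.18 in OHSS, and 14.2 and 19.0 in OHSS+Nin, a smaller spread in the same order of libraries. Psmb10, the third inducible subunit, stood at 17.4 and 21.1 CPM in COH, 32.6 and 16.2 in OHSS, and 24.8 and 45.0 in OHSS+Nin. The constitutive subunits Psmb5, Psmb6 and Psmb7 summed to 329 and 327.5 CPM in COH, 296 and 273 in OHSS, and 306.5 and 281 in OHSS+Nin. The ratio of the 3 inducible to the 3 constitutive subunits was 0.151 and 0.152 in COH, then 0.340 and 0.149 in OHSS, and 0.272 and 0.494 in OHSS+Nin. Both OHSS+Nin libraries exceeded COH in this ratio, and OHSS replicate 2 matched COH. On the log2 scale its mean was -2.72 ± 0.0047 in COH, -2.15 ± 0.843 in OHSS and -1.45 ± 0.608 in OHSS+Nin (SD, n = 2). With 2 libraries a side, the smallest two-sided p of an exact permutation test is 1 in 3, and the ratio was not tested.

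**Figure D2:**
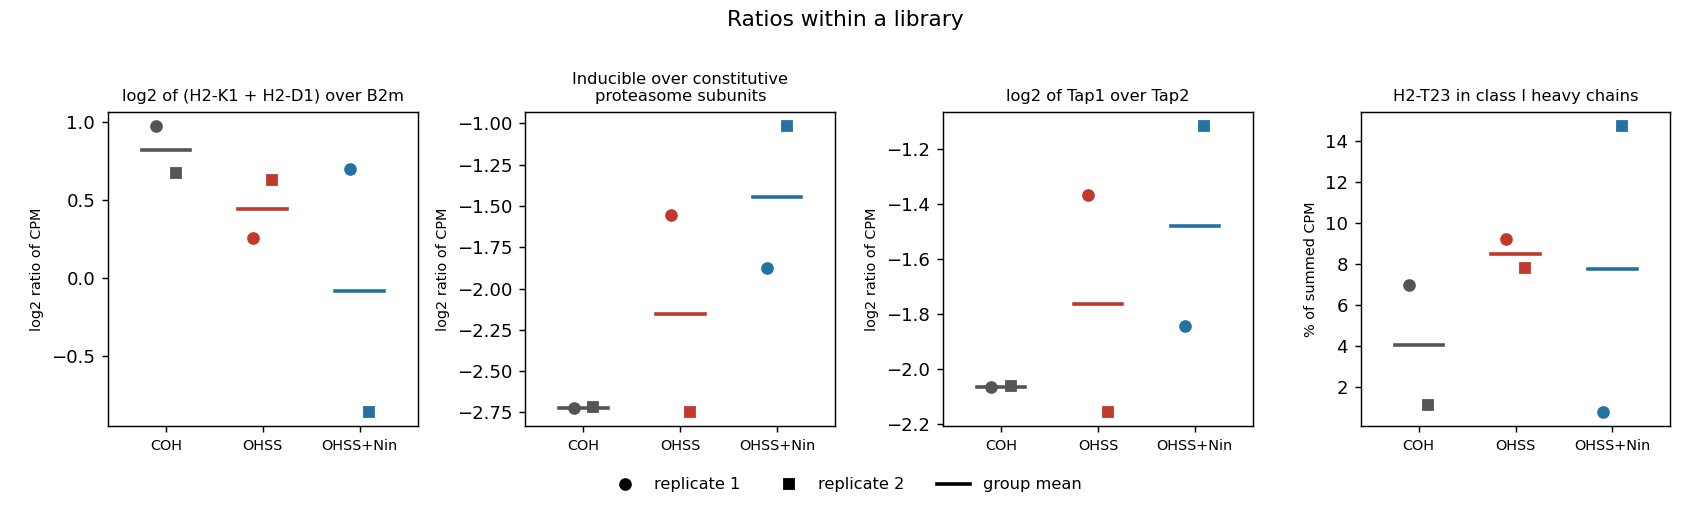
Ratios within each library of COH, OHSS and OHSS+Nin (x axis): log2 of H2-K1 plus H2-D1 over B2m, log2 of inducible over constitutive proteasome subunits, log2 of Tap1 over Tap2, and the percent of heavy chain CPM in H2-T23. Circles are replicate 1, squares replicate 2 and bars group means; the COH replicates coincide in the middle panels, and OHSS replicate 2 sits near or below them.

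Nlrc5, the transactivator of class I genes, showed the widest range after H2-T23, 9.33-fold between the highest and the lowest library. It stood at 3.37 and 4.20 CPM in COH (120 counts in each library), 12.5 and 4.88 in OHSS (390 and 148 counts), and 9.68 and 31.5 in OHSS+Nin (279 and 1010 counts). OHSS and OHSS+Nin both lay above COH, and OHSS overlapped OHSS+Nin. The OHSS+Nin against COH log2 fold change was 2.44 (SE 0.708, 95% interval 0.66 to 4.22), a 5.44-fold higher level that edgeR did not call (adjusted p = 0.491). Without OHSS+Nin replicate 2 the log2 fold change was 1.35.

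In OHSS against COH, the question is which of these genes differ in the syndrome model. All 10 had a higher mean in OHSS (49.6% of the genes tested had), with a median log2 fold change of 0.57 against -0.003 over all genes. Their fold changes ran from 0.02 for Psmb9 to 1.45 for H2-T23. Tap1, Tap2 and Nlrc5 lay above COH without overlap, 3 of 10 genes where 21.2% of all genes did. Tap2 had the largest test statistic, with a log2 fold change of 0.52 (SE 0.151, 95% interval 0.14 to 0.90, edgeR adjusted p = 0.533). It was the 1 gene of 10 at an unadjusted p under 0.05, where 8.82% of all genes were. Tap1 differed by 0.92 (SE 0.457) and Nlrc5 by 1.20 (SE 0.689). edgeR called 0 of the 10 (0.0105% of all genes), DESeq2 0 (1.83%) and limma voom 0 (0%), with 1 at its unadjusted p under 0.05 (8.33%).

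The OHSS values rested on replicate 1. Without it the median log2 fold change was -0.13, and H2-K1 (-0.22), H2-D1 (-0.34), B2m (-0.11), Tapbp (-0.15), Psmb8 (-0.16) and Psmb9 (-0.55) turned negative, while Tap2 stayed at 0.34, Nlrc5 at 0.38 and Tap1 at 0.25. Without OHSS replicate 2 the median was 0.89. It was 0.46 without COH replicate 1 and 0.61 without COH replicate 2.

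In OHSS+Nin against OHSS, the question is how the drug group differs from the untreated model. All 10 genes again had the higher mean in the drug group (51.5% of genes tested), with a median log2 fold change of 0.43 against 0.01. For 0 of the 10 did the groups lie apart, where 19.2% of all genes were higher and 16.9% lower without overlap. Nlrc5 had the largest fold change, 1.24 (SE 0.677, 95% interval -0.46 to 2.94, edgeR adjusted p = 0.724), then Psmb8 at 0.81 (SE 0.558), B2m at 0.65 (SE 0.422) and Tapbp at 0.60 (SE 0.343). Tap2 differed by 0.17 (SE 0.151, interval -0.20 to 0.55). edgeR called 0 of 10 (0.00526% of all genes) and had 0 at an unadjusted p under 0.05 (7.42%), against 0 calls by DESeq2 (1.12%) and limma voom 0 (0.00526%), with 0 at its unadjusted p under 0.05 (7.12%). Without OHSS replicate 2 the median was 0.02 and without OHSS replicate 1 it was 1.01. It was 0.82 without OHSS+Nin replicate 1 and 0.19 without OHSS+Nin replicate 2.

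OHSS+Nin against COH sets the drug group beside the reference. It shares its libraries with the other comparisons, so its values are not separate evidence. Here 7 of 10 genes (B2m, Tap1, Tap2, Tapbp, Psmb8, Psmb9 and Nlrc5) lay above COH without overlap, where 22.3% of all genes did, and the 3 heavy chains overlapped. The median log2 fold change was 1.07 against -0.001 over all genes, and all 10 means were higher (49.9% of genes tested). Psmb8 differed by 1.70 (SE 0.571, 95% interval 0.26 to 3.13), Tap1 by 1.34 (SE 0.461), Tapbp by 0.88 (SE 0.344) and Tap2 by 0.69 (SE 0.151, interval 0.31 to 1.07). Psmb9 differed by 0.46 (SE 0.356, interval -0.44 to 1.35). With Nlrc5 and B2m, 6 genes were at an unadjusted edgeR p under 0.05 (9.7% of all genes), all of them higher (5.62%). edgeR called 0 of 10 (0.0263% of all genes), with adjusted p from 0.44 for Tap2 to 0.771 for H2-D1. DESeq2 called 2 (2.43% of its 17920 genes), Tap2 with adjusted p = 0.0133 and Nlrc5 with 0.0169, and limma voom called 0 (0.0105%), with 5 at its unadjusted p under 0.05 (9.29%). Over the alternatives the adjusted p of Tap2 spanned 0.0133 to 0.965 and that of Nlrc5 0.0169 to 0.965. The median of the 10 genes was 1.02 without COH replicate 1 and 0.76 without COH replicate 2. It was 1.33 without OHSS+Nin replicate 1 and 0.87 without OHSS+Nin replicate 2.

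**Figure D3:**
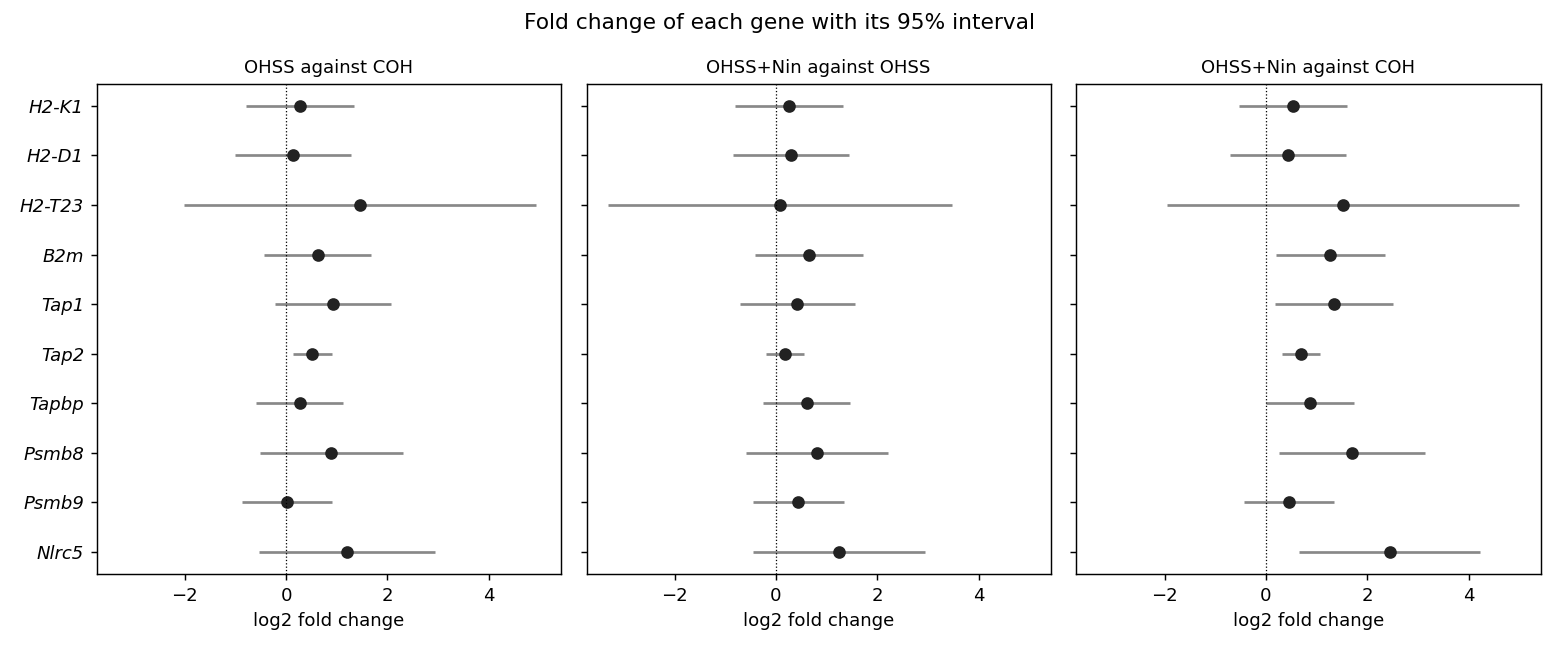
Log2 fold change of each gene (points, x axis) with its 95% interval (lines) from the edgeR fit, in OHSS against COH, OHSS+Nin against OHSS and OHSS+Nin against COH. All points lie to the right of 0; the interval of Tap2 excludes 0 in the first panel, and those of B2m, Tap1, Tap2, Tapbp, Psmb8 and Nlrc5 do in the last.

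Replicates differed more in these genes than in the typical gene, in OHSS and in OHSS+Nin. The median absolute log2 gap between replicates was 0.17 in COH, 1.07 in OHSS and 0.83 in OHSS+Nin, against 0.20, 0.26 and 0.27 over all genes tested. A gap above 1 was seen in 1, 5 and 4 of the 10 genes, where 8.56, 11.7 and 13.9% of all genes had it. Relative to the COH mean, the median of the 10 genes was 0.91 and -0.13 in the OHSS libraries and 0.87 and 1.34 in the OHSS+Nin libraries, on the log2 scale. OHSS+Nin replicate 2 held the highest value of 8 genes and OHSS+Nin replicate 1 that of H2-K1 and H2-D1. OHSS replicate 2 held the lowest value of H2-K1, H2-D1, Tapbp, Psmb8 and Psmb9.

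**Figure D4:**
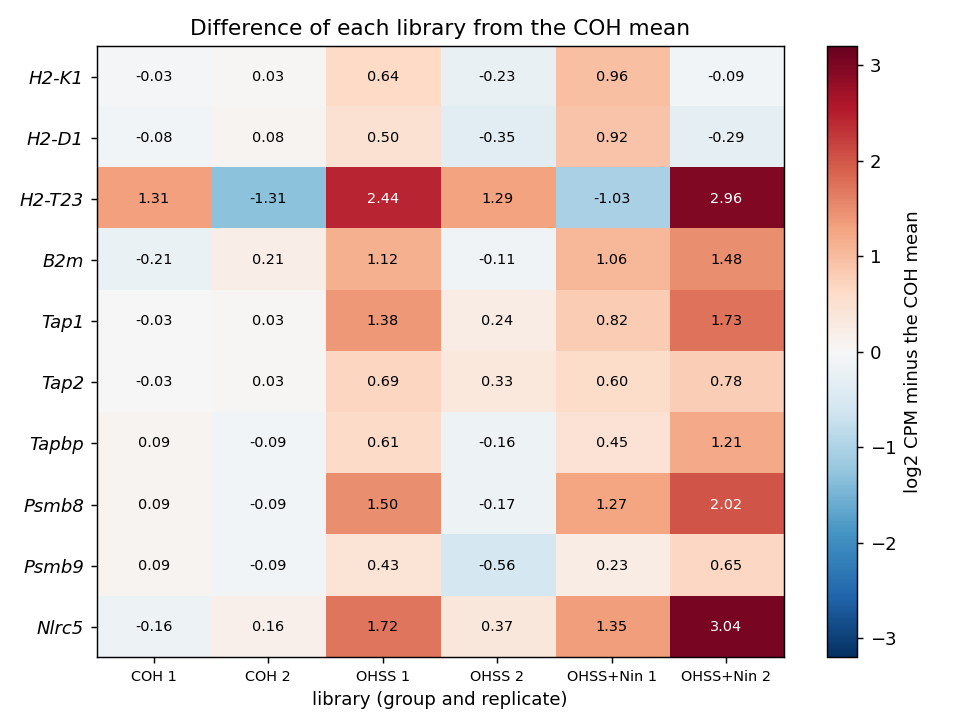
Difference of each library (columns) from the COH mean in log2 CPM for each gene (rows), with red above and blue below the COH mean. OHSS replicate 1 is above the COH mean for all 10 genes, and the OHSS+Nin replicates lie on opposite sides of it for H2-K1, H2-D1 and H2-T23. The COH replicates mirror each other around 0 by construction.

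The partners of peptide supply and loading, a list of 15 genes such as the chaperones Calr, Canx and Pdia3, had medians nearer 0. Their median log2 fold change was 0.06 in OHSS against COH, 0.14 in OHSS+Nin against OHSS and 0.27 in OHSS+Nin against COH. At an unadjusted edgeR p under 0.05, 1, 0 and 3 of the 15 were higher and 0 lower (4.59, 3.95 and 5.62% of all genes were higher). Lnpep, an aminopeptidase of endosomal class I loading, stood at 16.95 and 15.4 CPM in COH, 21.99 and 24.02 in OHSS, and 20.7 and 21.6 in OHSS+Nin. Erap1, which trims peptides in the endoplasmic reticulum, stood at 50.7 and 51.8 CPM in COH, 78.0 and 50.4 in OHSS, and 79.7 and 97.7 in OHSS+Nin, high and low in the same OHSS libraries as Tap1. Calr, the chaperone calreticulin, stood at 1494 and 1706 CPM in COH, 1463 and 1475 in OHSS, and 1362 and 1224 in OHSS+Nin, with the drug group lowest. Canx, the chaperone calnexin, differed by -0.01 (SE 0.107) in OHSS against COH and Pdia3, its thiol oxidoreductase partner, by -0.14 (SE 0.128). Psme1, a subunit of the proteasome activator PA28, differed by 0.06 (SE 0.282) and 0.47 (SE 0.282) in OHSS against COH and OHSS+Nin against OHSS. Of 25 genes of the proteasome core and cap, 4 were lower and 0 higher at an unadjusted edgeR p under 0.05 in OHSS against COH (4.24% of all genes were lower), with a median of -0.15, among them Psmd3 at -0.26 (SE 0.0915). edgeR called 0 genes of either list in any of the comparisons, and so did DESeq2.

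Of 22 other class I heavy chains listed, 15 had enough counts to be tested, and the rest are not counted here. In OHSS against COH, 10 of the 15 had a higher mean in OHSS and 5 a lower one (49.6% of all genes had a higher one). At an unadjusted edgeR p under 0.05, 1 was higher and 0 lower there (4.59% of all genes were higher), with a median of 0.13. In each of the comparisons with OHSS+Nin, 11 of the 15 had a higher mean in the drug group and 4 a lower one (51.5 and 49.9% of all genes had a higher one). In OHSS+Nin against OHSS, 4 of the 15 were higher and 0 lower at an unadjusted edgeR p under 0.05, and in OHSS+Nin against COH 6 were higher and 0 lower (3.95 and 5.62% of all genes were higher), with medians of 0.52 and 0.66. edgeR called 0 of them after adjustment, and DESeq2 called 0 and 4 (1.12 and 2.43% of all genes). H2-Q4, a nonclassical heavy chain, stood at 18.7 and 22.9 CPM in COH, 47.45 and 21.25 in OHSS, and 53.8 and 83.4 in OHSS+Nin. H2-Q7, a heavy chain of the Qa-2 antigen, stood at 3.54 and 5.01 CPM in COH, 7.20 and 2.24 in OHSS, and 12.1 and 31.5 in OHSS+Nin, so the drug group lay above all other libraries for both genes. H2-M3, which presents formylated peptides, differed by 0.79 (SE 0.255) in OHSS+Nin against OHSS. H2-Q10, a secreted heavy chain made mainly in liver, was near 0 in every library but OHSS+Nin replicate 2, at 0.264 to 0.997 CPM in the other 5 and 56.1 CPM there. H2-Q1, another of the 15, was not higher in both OHSS+Nin libraries, at 10.8 and 13.1 CPM in COH, 16.9 and 9.27 in OHSS, and 21.2 and 2.805 in OHSS+Nin. These genes are near-identical copies in part, so their split of reads is uncertain.

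Among the regulators, Irf1, an interferon-induced factor that acts on class I promoters, stood at 19.45 and 17.5 CPM in COH, 43.7 and 44.7 in OHSS, and 37.5 and 57.3 in OHSS+Nin. Both OHSS libraries were alike for Irf1, with a log2 fold change against COH of 1.26 (SE 0.220, edgeR unadjusted p = 0.00176). Between the same libraries the 10 class I genes differed by 1.28-fold for Tap2 up to 3.19-fold for Psmb8. Irf7, Irf9 and Stat2, which carry type I interferon signals, differed by 3.49 (SE 0.975), 1.58 (SE 0.370) and 2.32 (SE 0.695) in OHSS against COH. Irf2 differed by 0.12 (SE 0.191), and Rfx5, a DNA-binding subunit of the complex at the X box, by 0.19 (SE 0.399). Of 23 regulators, 5, 1 and 5 were higher and 0 lower at an unadjusted edgeR p under 0.05 in the comparisons in the order above (4.59, 3.95 and 5.62% of all genes were higher), edgeR called 0 and DESeq2 called 4, 0 and 5 (1.83, 1.12 and 2.43% of all genes). In OHSS+Nin against OHSS the regulators' share was thus close to that of all genes.

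Of 24 type I interferon response genes, 18, 0 and 24 were higher and 0 lower at an unadjusted edgeR p under 0.05 (4.59, 3.95 and 5.62% of all genes were higher), with medians of 3.45, 0.88 and 4.49. edgeR called 0 after adjustment, and DESeq2 called 14, 0 and 20 (1.83, 1.12 and 2.43% of all genes). Oas2, an antiviral sensor of double-stranded RNA, stood at 4.75 and 3.96 CPM in COH, 81.4 and 20.3 in OHSS, and 55.8 and 157.9 in OHSS+Nin. Mx2, an antiviral GTPase, stood at 2.50 and 2.38 CPM, 60.5 and 17.0, and 24.4 and 106.3 in the same groups. For both genes OHSS replicate 2 was the lowest library outside COH and OHSS+Nin replicate 2 the highest. Of 16 tested genes on the interferon gamma list, 9, 0 and 14 were higher at that p, against the same shares of all genes, 0 were lower and edgeR called 0, with medians of 2.18, 0.81 and 2.93, among them the guanosine triphosphatase Irgm2 at 2.36 (SE 0.639) in OHSS against COH. DESeq2 called 4, 0 and 8 of them, against the shares of all genes given for the type I list. Relative to COH, the type I list had medians of 4.22 and 1.67 in OHSS and of 2.97 and 5.04 in OHSS+Nin, so all 4 lay above COH, while the 10 class I genes had 1 library, OHSS replicate 2, below it. The interferon gamma gene Ifng and the interferon beta gene Ifnb1 had 0 counts in all 6 libraries. The receptor genes Ifngr1 and Ifnar1 differed by 0.14 (SE 0.157) and -0.13 (SE 0.102) in OHSS against COH.

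**Figure D5:**
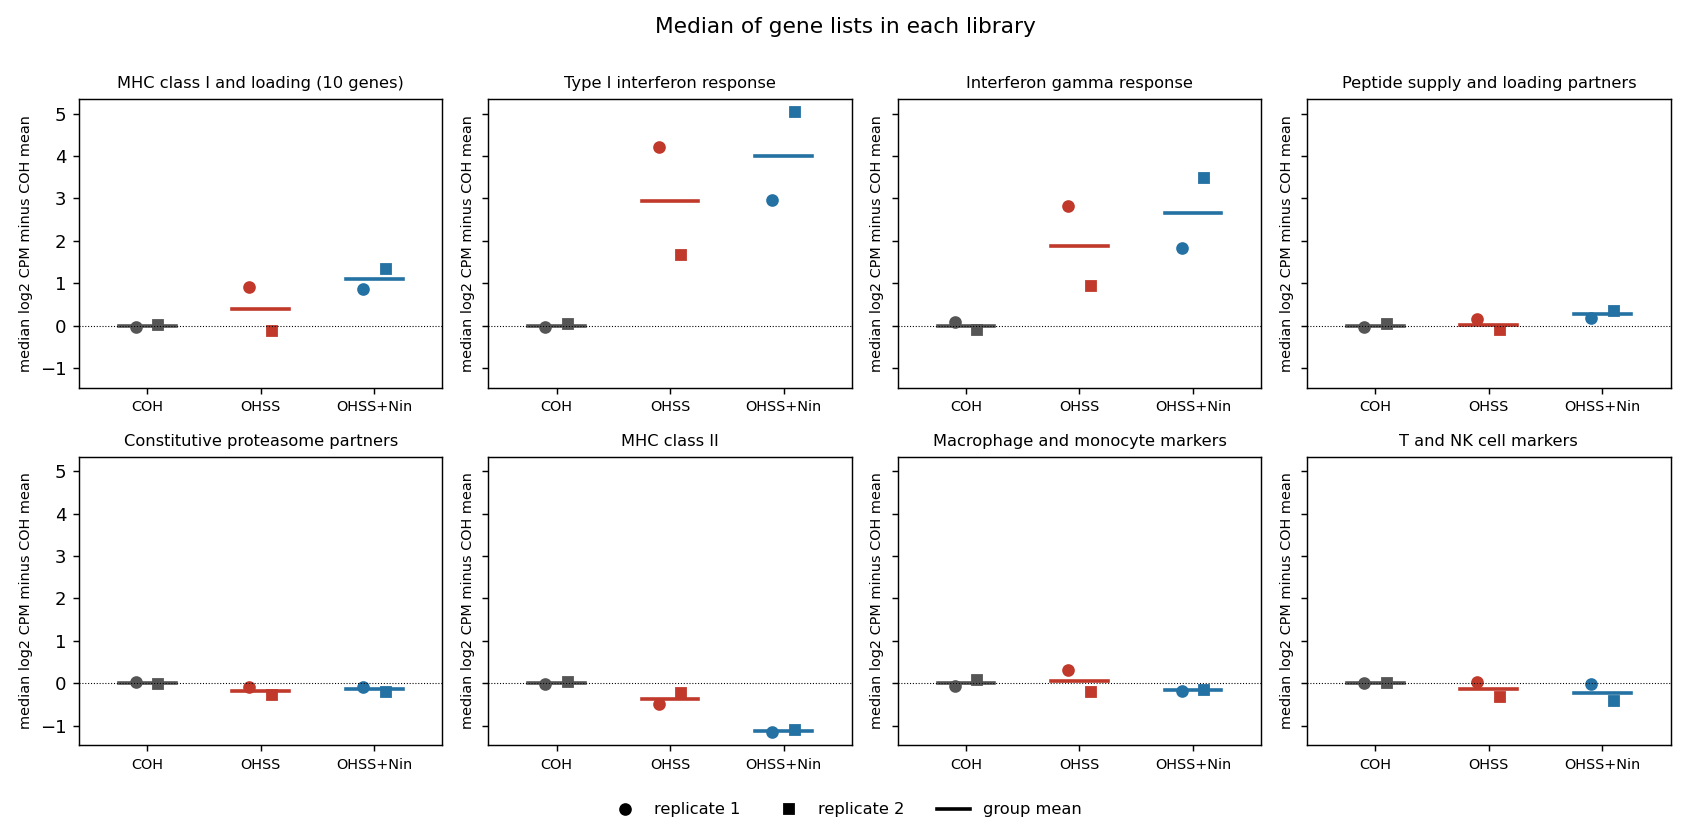
Median over the genes of a list of log2 CPM minus the COH mean (y axis, shared scale) in each library, for the 10 class I genes and 7 other lists; circles are replicate 1, squares replicate 2 and bars group means. For the class I genes and the interferon lists, OHSS replicate 1 and OHSS+Nin replicate 2 stand highest, and the MHC class II medians lie below 0 in all OHSS and OHSS+Nin libraries.

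MHC class II genes, which serve antigen-presenting cells, had medians below COH in both other groups. Of 11 class II genes, 0 were higher and 2, 3 and 7 lower at an unadjusted edgeR p under 0.05 in the comparisons in the order above (4.24, 3.47 and 4.08% of all genes were lower), with medians of -0.37, -0.69 and -1.39. edgeR called 0 and DESeq2 1, 3 and 3 (1.83, 1.12 and 2.43% of all genes). H2-Ab1, a class II beta chain, stood at 47.2 and 52.4 CPM in COH, 26.7 and 28.9 in OHSS, and 13.8 and 11.1 in OHSS+Nin, with no overlap between any groups. Its log2 fold change in OHSS+Nin against OHSS was -1.16 (SE 0.155). Cd74, the invariant chain, differed by -1.44 (SE 0.273) and H2-Aa by -1.01 (SE 0.166) in that comparison. Ciita, the class II counterpart of Nlrc5, stood at 2.16 and 1.75 CPM in COH, 1.22 and 1.82 in OHSS, and 1.07 and 0.873 in OHSS+Nin, the reverse order of the Nlrc5 means.

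Leukocytes carry much class I, and in whole tissue fewer cells of a type and less RNA per cell cannot be told apart. The defining genes of T cells were near 0, with Cd8a at 0 to 0.45 CPM and Cd3e at 0.218 to 0.843 CPM, and 18 T and natural killer cell markers summed to 18.6 and 17.8 CPM in COH, 19.3 and 16.5 in OHSS, and 17.9 and 14.6 in OHSS+Nin. The sum of 14 macrophage and monocyte markers was 649.5 and 728 CPM in COH, 781.5 and 514 in OHSS, and 493 and 456 in OHSS+Nin, and that of 6 pan-leukocyte markers 91.1 and 93.6, 100.6 and 76.4, and 80.6 and 70.3. In OHSS both sums were higher in replicate 1, as all 10 class I genes were, and in OHSS+Nin both were below COH. Ptprc, the pan-leukocyte CD45, stood at 9.56 and 9.25 CPM in COH, 14.7 and 9.21 in OHSS, and 9.71 and 4.08 in OHSS+Nin, lowest in the library with the most Nlrc5. Adgre1, the macrophage antigen F4/80, differed by -0.14 (SE 0.135) and -0.04 (SE 0.135) in OHSS against COH and OHSS+Nin against OHSS. B and plasma cell markers summed to 2.90 to 5.18 CPM, dendritic cell markers to 48.3 to 61.0 and neutrophil markers to 4.8 to 12.1. Endothelial markers summed to 771 and 747 CPM in COH, 646 and 662 in OHSS, and 813 and 835 in OHSS+Nin, and ovarian somatic markers to 15580 to 20970 CPM. Oocyte markers summed to 190.1 to 361.8 CPM. The part of these cell types in the class I values was not tested.

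Among 11471 genes with a mean of at least 5 CPM, the patterns most like the mean of the 10 genes over the 6 libraries were those of Dcp2 (r = 0.9989), Parp12 (0.9962), Esyt1 (0.9959), Pot1b (0.9937), Actn4 (0.9934), Rbl1 (0.9909), Sdc3 (0.9903) and Parp9 (0.9891). These are Pearson correlations of log2 CPM over points that share library and depth, and 298 genes exceeded 0.9. Parp9, a macrodomain ADP-ribosyltransferase family member, stood at 21.3 and 17.4 CPM in COH, 100.2 and 29.6 in OHSS, and 57.5 and 157 in OHSS+Nin. Dcp2, the messenger RNA decapping enzyme, followed the same order of libraries over a narrow range, 49.6 to 82.1 CPM. H2-D1 was among the 5 genes most like H2-K1 (r = 0.9843) and H2-T22 among the 5 most like H2-T23 (r = 0.9723), a search made after their values were seen.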

How the data were processed

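Ovarian RNA of ICR mice was profiled in 6 libraries, and group and replicate came from the sample titles and characteristics. The authors deposited 1 table of raw, whole-number counts for 51826 genes, per the file headers. Per the submitters' processing notes, the build was mm8 and the tools were HISAT2 2.1.0, StringTie 1.3.3b and Trimmomatic 0.36. The counting program, annotation release and use of strand were not given in the sources used here. Counts came to 144.2 to 148% of read pairs and 72.1 to 74.0% of reads in the deposited read summaries, so a pair appears to be counted as 2 reads and counting errors are larger than counts alone would give. No row lacked a gene name.

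A low-count filter (filterByExpr of edgeR 4.0.16, R 4.3.3) kept 19027 genes, and TMM scaling gave factors of 0.961 to 1.03. All 3 groups entered 1 edgeR quasi-likelihood fit, tested two-sided with Benjamini-Hochberg adjustment over all genes tested and 3 residual and 2.41 prior degrees of freedom. The standard error was derived from the F statistic. Levels of log2 CPM used a prior count of 2. The fit was run on simulated counts with large changes in well-counted genes and the same spread for every gene. That run does not show how the fit performs with replicate gaps as wide as those of the class I genes. Alternatives were DESeq2 1.42.0, limma voom (limma 3.58.1), other scalings and filters, fits with a replicate block or on just the groups compared, and each library left out. The median without the 3 heavy chains was added after the data had been seen.

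The genes, the lists and the naming rule were chosen with earlier results of these data known. The rule names all 10 genes, a fixed set of partners and regulators, up to 4 genes of each list with the smallest p in the first 2 comparisons, and the 8 genes most like the mean of the 10. Not every gene it allows is named. H2-T23's relatives, H2-Q10 and other genes of the text outside it were chosen after their values were seen. Coordinates and lengths are those of GENCODE M21 on GRCm38, not of mm8, and the table holds no coordinates. Promoters are from RefSeq. The Tap2 and Nlrc5 promoters and protein sequences are not used here.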

Additional observations from a re-analysis of the deposited data

How the results depend on the processing

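With 2 libraries a group, each value rests on few samples. Of the fold changes of the 10 genes under the settings other than leaving out a library, 264 kept direction and call, 2 were called (DESeq2: Tap2 0.70 and Nlrc5 2.45 in OHSS+Nin against COH) and 4 turned negative. Those were Psmb9 in OHSS against COH with library size only (-0.05), limma voom (-0.066) and the replicate block (-0.015), and H2-T23 in OHSS+Nin against OHSS with limma voom (-0.85). Genes called in OHSS against COH, OHSS+Nin against OHSS and OHSS+Nin against COH numbered 2, 1 and 5, and 348, 213 and 436 with DESeq2, 0, 1 and 2 with limma voom, 1, 0 and 2 with the block and 0, 0 and 2 in a fit of only the 2 groups compared. Without a filter they were 4 and 2 in the first 2 comparisons. DESeq2 had 2 class I genes at an unadjusted p under 0.05 in OHSS against COH and called 2 in OHSS+Nin against COH. Over all genes tested, same-numbered libraries did not deviate together from their group means (r = -0.000723, 0.0484 and -0.00226). This shows no broad shift shared by number, but cannot tell whether same-numbered libraries are paired in a way that affects some genes. The cause of these differences was not tested.

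With each library left out, 162 fold changes kept their direction and 18 turned. The 162 include fits in which the library left out was in neither group compared. There the fold change could hardly move, so the 162 overstates how stable the directions were. Genes called ran from 0 to 2, 0 to 30 and 0 to 53 in the 3 comparisons, the highest 2 without OHSS+Nin replicate 1, and class I genes at an unadjusted p under 0.05 from 0 to 4, 0 to 4 and 1 to 6. The class I median ran from -0.13 to 0.89, 0.018 to 1.01 and 0.76 to 1.33. In OHSS against COH the log2 fold change ran from -0.22 to 0.64 for H2-K1, -0.34 to 0.49 for H2-D1, -0.11 to 1.10 for B2m, -0.15 to 0.60 for Tapbp, -0.16 to 1.49 for Psmb8 and -0.55 to 0.42 for Psmb9. In OHSS+Nin against OHSS it ran from -0.36 to 0.75 for H2-K1, -0.42 to 0.79 for H2-D1, -3.02 to 0.98 for H2-T23 and -0.10 to 1.09 for Tap1. In OHSS+Nin against COH it ran from -0.093 to 0.96 for H2-K1, -0.29 to 0.92 for H2-D1 and -1.56 to 3.37 for H2-T23. The log2 ratio of inducible to constitutive proteasome subunits differed by -0.03 to 1.17, 0.11 to 1.3 and 0.84 to 1.70. Without the 3 heavy chains the class I median was 0.62, 0.60 and 1.27.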

Other observations

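The count table's own annotation for antigen processing and presentation covers class I and class II genes together. It marked 73 genes, of which 54 were tested, and 6 of the 10 class I genes were among them. At an unadjusted edgeR p under 0.05, 2 of the 54 were higher and 2 lower in OHSS against COH, where 4.59 and 4.24% of all genes tested were. The counts were 5 and 3 in OHSS+Nin against OHSS (3.95 and 3.47% of all genes), and 9 and 7 in OHSS+Nin against COH (5.62 and 4.08%). edgeR called 0 of them in each comparison, and the medians were -0.015, 0.07 and 0.04. Genes of receptors that read class I, such as Cd8a, Klrd1 and Pirb, were scarce, and the 12 listed summed to 10.4 to 15.4 CPM in a library.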
